A study of Homo sapiens with 10 samples.

Results

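The genes described here encode ligands on the surface of tumour cells that immune cells read: the NKG2D ligands ULBP1, ULBP2, ULBP3, MICA and MICB, the PD-1 ligands CD274 (PD-L1) and PDCD1LG2 (PD-L2), and CD47, CD276 (B7-H3) and NECTIN2. They were measured in SH-SY5Y cells, an established line of sympathetic neuroblast character derived from a human neuroblastoma, on 5 arrays of untreated cells (controls 7, 11, 13, 17 and 19, by their title numbers) and 5 arrays of cells exposed to paraquat (paraquat 8, 12, 14, 18 and 20). Paraquat is a redox-cycling herbicide that makes cells produce superoxide. The labels leave its dose and duration to an earlier publication that was not used here, and all arrays are of 1 cell line. A gene was taken through the row of the expression table whose annotation gives its symbol and no other, and among several such rows through the brightest over the 10 arrays. Of the 10 genes, 7 had such a row, among 14232 genes with one in a table of 22011 rows, and each of the 7 had exactly 1 row, so brightness chose none of them. ULBP2 and ULBP3 occur only in rows with several symbols, and MICA matched no row. The genes themselves were selected on earlier results of these data, the changes after paraquat included, so the values below describe them.

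NKG2D is an activating receptor of natural killer cells and of some T cells. Its ligands are relatives of MHC class I molecules that most healthy cells carry at low density and that cells under stress, with DNA damage or infection can display. PD-1 is an inhibitory receptor of activated T cells, and PD-L1 and PD-L2 restrain the T cell when they bind it. CD47 binds SIRP-alpha on macrophages and restrains phagocytosis, B7-H3 is an abundant surface protein of neuroblastoma, and nectin-2 binds the receptors DNAM-1 and TIGIT. The arrays measured RNA and not the surface proteins.

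Of the 7 measured ligand genes, 3 rose after paraquat and none fell. ULBP1 rose 19.0-fold, CD274 6.41-fold and PDCD1LG2 2.77-fold, while MICB, CD47, CD276 and NECTIN2 had log2 changes between -0.07 and -0.04 that did not pass. Calls are at an adjusted p under 0.05 from the linear model of limma with Benjamini-Hochberg adjustment over all rows. In the same comparison 20.0% of the 22011 rows passed, 8.51% upward and 11.5% downward. The median log2 change was -0.04 over the 7 genes and 0.00471 over all rows. At an unadjusted p under 0.05, the number of lowered members was also 0. Because the changes were known when the genes were selected, this count is no independent evidence.

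In the control arrays the neuroblast transcription factors PHOX2A, GATA3 and ISL1 had means of 9.97, 9.96 and 9.95 (log2), while TH, the first enzyme of catecholamine synthesis, was at 6.31, below the array medians. The listed mesenchymal genes spread widely. COL3A1 and PDGFRB were at 10.34 and 8.98, DCN, LUM and COL1A1 at 8.12, 7.98 and 7.51, and POSTN was dim at 2.27. Array medians lay between 6.78 and 6.93. Control 11 and paraquat 12 stood apart on the second principal component of all rows (18.2% of the variance), with scores of 49.0 and 27.9 against -24.0 to 6.85 for the other arrays. With both left out, ULBP1 changed by 4.35 ± 0.45 (log2 change ± SE), CD274 by 2.95 ± 0.30 and PDCD1LG2 by 1.45 ± 0.25, against 4.25 ± 0.42, 2.68 ± 0.31 and 1.47 ± 0.21 with all arrays. No label tells if replicate arrays stem from independent cultures, and the p-values may therefore rest on technical spread alone.

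The promoters of 4 of these genes are shown because they set the 2 raised genes with an entry in the sequence table beside a relative of each that did not pass, MICB for the NKG2D ligands and CD276 for the B7 family. The sequences are from RefSeq (build GRCh38.p14), run 5′ to 3′ on the gene's strand from 250 bases before to 50 bases after the annotated start, and number 300 bases each. Capitals mark matches, on either strand, to 5 motif patterns: the AP-1 element TGANTCA, the antioxidant response element TGACNNNGC, the C/EBP-ATF response element TGATGNAA, the NF-kB element (GGG, any 5 bases, then CC) and the heat shock element GAANNTTC.
ULBP1, chr6:149963693-149963992, plus strand: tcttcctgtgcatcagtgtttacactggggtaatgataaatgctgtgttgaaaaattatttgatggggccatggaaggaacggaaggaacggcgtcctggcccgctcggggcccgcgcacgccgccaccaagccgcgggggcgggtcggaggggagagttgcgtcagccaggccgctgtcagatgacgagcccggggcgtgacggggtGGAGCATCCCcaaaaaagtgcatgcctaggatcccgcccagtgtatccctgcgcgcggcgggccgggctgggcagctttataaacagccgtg
MICB, chr6:31497895-31498194, plus strand: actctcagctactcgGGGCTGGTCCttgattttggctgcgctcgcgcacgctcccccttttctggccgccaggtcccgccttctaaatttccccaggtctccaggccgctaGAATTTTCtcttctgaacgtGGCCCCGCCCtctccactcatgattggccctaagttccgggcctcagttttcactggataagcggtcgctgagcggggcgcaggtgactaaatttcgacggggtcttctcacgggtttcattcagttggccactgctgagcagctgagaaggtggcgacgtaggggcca
CD274, chr9:5450292-5450591, plus strand: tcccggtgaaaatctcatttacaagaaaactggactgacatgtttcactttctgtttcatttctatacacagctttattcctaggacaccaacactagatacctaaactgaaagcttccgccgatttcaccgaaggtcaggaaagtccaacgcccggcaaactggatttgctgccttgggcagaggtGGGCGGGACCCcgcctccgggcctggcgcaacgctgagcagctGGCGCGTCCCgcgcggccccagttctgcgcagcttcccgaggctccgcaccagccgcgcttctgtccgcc
CD276, chr15:73684133-73684432, plus strand: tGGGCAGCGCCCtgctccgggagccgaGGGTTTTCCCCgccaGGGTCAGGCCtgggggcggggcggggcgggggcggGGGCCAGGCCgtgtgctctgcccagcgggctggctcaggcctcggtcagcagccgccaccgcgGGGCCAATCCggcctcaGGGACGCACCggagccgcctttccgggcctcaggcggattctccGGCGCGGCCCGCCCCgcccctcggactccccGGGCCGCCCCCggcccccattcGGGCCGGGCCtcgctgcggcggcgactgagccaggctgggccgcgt
The capitals in ULBP1, CD274 and CD276 are matches to the NF-kB pattern, as are those in MICB except the run GAATTTTC, which matches the heat shock pattern. The promoter table held 9 of the 10 genes, and PDCD1LG2 was not matched. All 9 held the NF-kB pattern, a loose one that 58.7% of 35116 promoters of this length hold, and all 9 held the GC box GGGCGG, found in 45.0% of promoters. A GC box lies inside an NF-kB match in CD274, MICB and CD276, and also in MICA, CD47 and NECTIN2. In CD274, GGGCGG at base -63 opens the match GGGCGGGACC. The GC content was 62.7% in ULBP1, 57.3% in CD274, 59% in MICB and 80.3% in CD276, against a median of 58.7% over all promoters. The AP-1 pattern matched in ULBP2 and ULBP3 (7.71% of promoters), the antioxidant pattern in CD47 and NECTIN2 (13.3%), the C/EBP-ATF pattern in ULBP2 (3.62%) and the heat shock pattern in MICA and MICB (6.77%). MICA and MICB had the most similar promoters of the 9, with 238 identical bases over an alignment of 307 (77.5%), and the next pair, CD47 and CD276, had 55.7%. ULBP1 and ULBP3 had 49.4%. A match is a run of letters and no measured binding site, and genes that rose and genes that did not pass both hold the NF-kB pattern.

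ULBP1, the NKG2D ligand with the largest change (transcript cluster 2931036), had values of 4.05, 2.94, 2.55, 2.70 and 4.50 (log2) in controls 7, 11, 13, 17 and 19. In paraquat 8, 12, 14, 18 and 20 they were 7.44, 6.79, 8.58, 7.64 and 7.54. The groups did not overlap, and the lowest paraquat array lay 2.29 above the highest control array. ULBP1 rose by 4.25 ± 0.42 on the log2 scale (adjusted p = 4.45e-05 by limma), from 3.35 ± 0.87 to 7.60 ± 0.64 (mean ± SD, n = 5 arrays each). Its 95% confidence interval, 10.1-fold to 35.9-fold, is wide. The increase ranked 5 among the 22011 rows. Its row moved from the dimmest 20% of rows, with means up to 4.18, to a paraquat mean above the array medians, and it lay above its own array's median in 4 of the 5 paraquat arrays, all but paraquat 12. The table has no detection calls to separate such rows from background, so the starting level of ULBP1 and the size of its fold are uncertain.

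Control arrays differed more for ULBP1 than for most rows. Controls 7 and 19 lay at 4.05 and 4.50 and the other controls between 2.55 and 2.94. The SD within groups was 0.76, higher than in 98.6% of rows, whose median was 0.21. With 1 array left out in turn, the change lay between 4.01 and 4.54 and passed in 10 of 10 cases. A further row, transcript cluster 2979267, is assigned to ULBP3, ULBP1 and RAET1K together. It lay between 4.21 and 4.61 in controls and between 4.13 and 4.94 after paraquat, so that the groups overlapped (log2 change 0.07 ± 0.15, limma adjusted p = 0.821). The 2 rows that carry the ULBP1 symbol thus gave unlike changes, and which sequences the shared row detects was not tested.

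MICB, the other NKG2D ligand with a row of its own (transcript cluster 2902348), ranged from 5.43 to 5.80 in controls and from 5.31 to 5.77 after paraquat. The groups overlapped. Its log2 change was -0.07, with a 95% confidence interval of -0.30 to 0.17 (limma adjusted p = 0.747), so a fall below 0.811-fold or an increase above 1.12-fold lies outside the interval. The difference ULBP1 minus MICB within arrays went from -2.31 ± 0.79 in controls to 2.01 ± 0.76 after paraquat, a shift of 4.32. This is a description, since both changes were known when the genes were selected, and its size carries the uncertainty of the dim ULBP1 controls. MICB alone stands for the MIC genes here, since MICA could not be read.

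ULBP2 shares all 3 of its rows with RAET1G, and 1 of them with RAET1L as well, which encode further NKG2D ligands of nearly the same sequence. Transcript cluster 2930957, assigned to ULBP2 and RAET1G, had means of 4.78 ± 0.23 and 4.72 ± 0.14 in control and paraquat arrays (log2 change -0.06, limma adjusted p = 0.809). Transcript cluster 2979187, assigned to the same pair, had 3.34 ± 0.42 and 3.97 ± 0.27, both among the dimmest 20% of rows. Its change of 0.63 ± 0.20 passed narrowly (limma adjusted p = 0.0471) and its groups overlapped. The call was lost in 9 of 10 fits with 1 array left out (adjusted p from 0.0503 to 0.109), and held only without control 11. The row of RAET1L, ULBP2 and RAET1G (transcript cluster 2979246) ranged from 1.73 to 3.40 in controls and from 2.01 to 2.91 after paraquat. Its change of 0.49 did not pass (limma adjusted p = 0.343), but without control 13, its brightest control array, it was 0.78 and passed (adjusted p = 0.0261). RAET1E, the only RAET1 gene with a row of its own among the 3 listed, was dim in both groups and had a log2 change of -0.02 (limma adjusted p = 0.918), whose sign turned with centring of the arrays. Outside the row of ULBP1 itself, the largest change among these rows was 0.63.

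**Figure D1:**
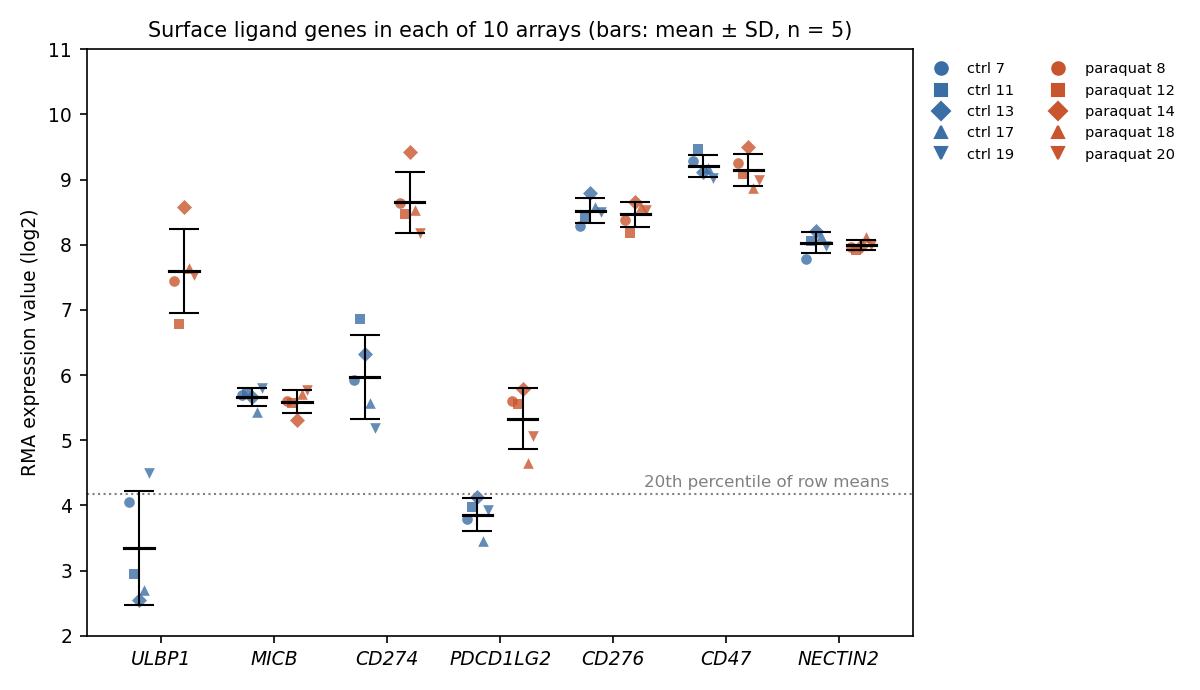
Deposited expression values (log2, vertical axis) of the 7 ligand genes in each of the 10 arrays, controls in blue and paraquat in orange with 1 marker shape per array; bars give mean ± SD of 5 arrays and the dotted line the level below which the dimmest 20% of rows lie (4.18). For ULBP1, CD274 and PDCD1LG2 all paraquat arrays lie above all control arrays, and for the other genes the groups overlap.

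CD274, which encodes PD-L1 (transcript cluster 3161082), had values of 5.92, 6.85, 6.33, 5.57 and 5.19 in controls 7, 11, 13, 17 and 19. After paraquat they were 8.64, 8.47, 9.43, 8.53 and 8.19 in arrays 8, 12, 14, 18 and 20. Every paraquat array was higher than every control array, with a gap of 1.33. CD274 rose by 2.68 ± 0.31 (limma adjusted p = 0.000138), from 5.97 ± 0.65 to 8.65 ± 0.46 (n = 5 each), and ranked 29 by increase among all rows. The control mean was not among the dimmest 20% of rows. Control 11 was the highest control at 6.85, and the change was 2.90 without that array. Leaving out each array in turn gave 2.48 to 2.90, and all 10 fits passed.

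PDCD1LG2, which encodes PD-L2 (transcript cluster 3161113), had control values of 3.79, 3.98, 4.14, 3.46 and 3.92. After paraquat they were 5.59, 5.56, 5.79, 4.65 and 5.06. The groups were apart by 0.51, and paraquat 18 and 20 lay below the other paraquat arrays. PDCD1LG2 rose by 1.47 ± 0.21 (limma adjusted p = 0.000609), from 3.86 ± 0.26 to 5.33 ± 0.47 (n = 5 each). Like ULBP1 it started among the dimmest 20% of rows, so that the fold is uncertain. Without paraquat 18 the change was 1.64, the highest of the 10 values with 1 array left out, and all of them passed. The difference CD274 minus PDCD1LG2 within arrays went from 2.11 ± 0.57 to 3.32 ± 0.42, a shift of 1.21. PDCD1LG2 was dim in controls, and the part of that in this difference was not tested.

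The groups did not overlap for 3 of the 7 ligand genes, all upward, and the same was so for 16.2% of all rows, 7.01% upward and 9.22% downward. Within the paraquat group, array 14 had the highest value of ULBP1, CD274, PDCD1LG2, CD47 and CD276 and the lowest of MICB. It also had the highest array median of its group, 6.92 against 6.78 to 6.85. Relative to each array's own median, paraquat 14 was still highest for ULBP1, CD274, PDCD1LG2 and CD47, while paraquat 18 was highest for CD276. Without it the changes were 4.01 for ULBP1, 2.49 for CD274 and 1.36 for PDCD1LG2. Among controls the arrays did not rank alike: control 19 had the highest ULBP1 value, 4.50, and the lowest CD274 value, 5.19.

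**Figure D2:**
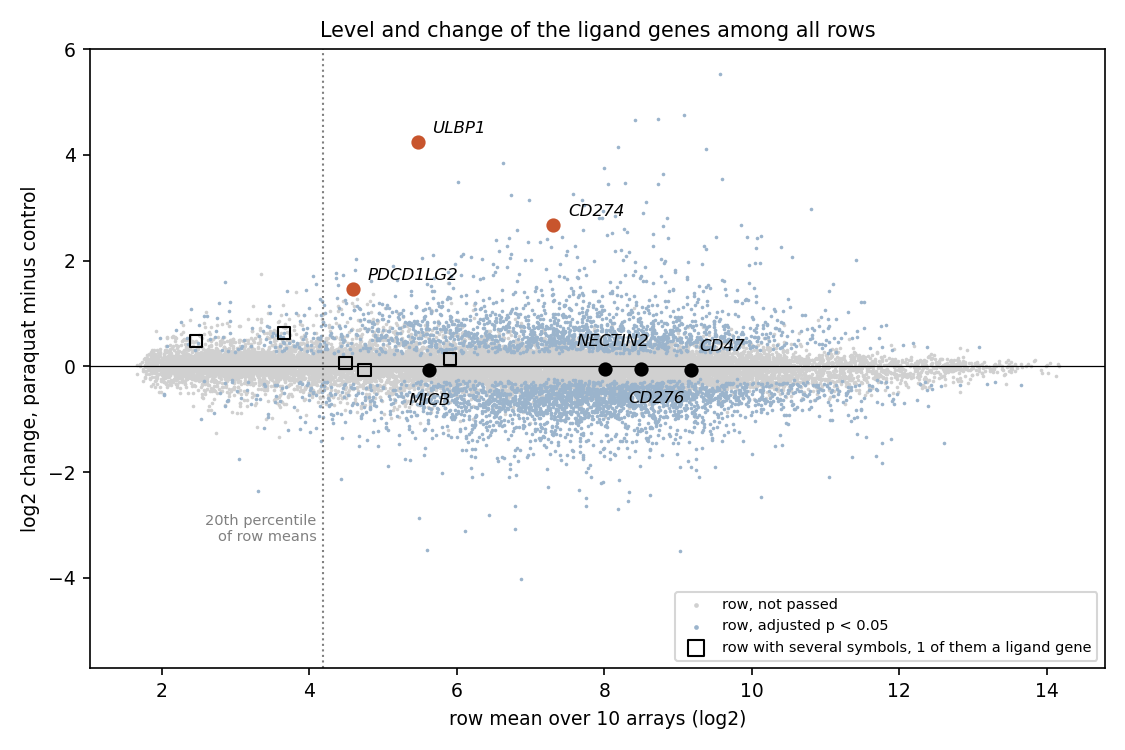
Log2 change after paraquat (vertical axis) against the mean log2 value over 10 arrays (horizontal axis) for all 22011 rows. Large points are the 7 ligand genes (orange where they passed). Open squares are the 5 rows with several symbols that include at least 1 of the listed ligand genes. ULBP1 (4.25), CD274 (2.68) and PDCD1LG2 (1.47) lie above most rows, and the other 4 genes lie close to 0.

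CD276, which encodes B7-H3 (transcript cluster 3601229), ranged from 8.29 to 8.80 in controls and from 8.18 to 8.66 after paraquat. Its log2 change was -0.05 (95% confidence interval -0.32 to 0.21, limma adjusted p = 0.825). Its SD within groups was 0.19, close to the median of all rows. The difference CD274 minus CD276 went from -2.55 ± 0.67 to 0.18 ± 0.41, a shift of 2.73, given as a description of genes selected with their changes known. CD47 (transcript cluster 2687739) ranged from 9.02 to 9.46 and from 8.87 to 9.50, with a log2 change of -0.07 (95% confidence interval -0.36 to 0.22, limma adjusted p = 0.782). NECTIN2 (transcript cluster 3835814) ranged from 7.79 to 8.21 and from 7.91 to 8.12, with a log2 change of -0.04 (-0.25 to 0.17, limma adjusted p = 0.839). Both groups overlapped for each of these genes. Their rows lay above 67.8% to 85.0% of all rows by mean, well clear of the dim range. A row assigned to ZBED2 and NECTIN2 together had a log2 change of 0.15 ± 0.10 (limma adjusted p = 0.391).

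CD274 and PDCD1LG2 are next to each other on chromosome 9 in RefSeq gene order. The adjoining protein-coding gene beyond PDCD1LG2, RIC1, rose by 0.59 ± 0.14 (limma adjusted p = 0.0115), from 8.10 ± 0.19 to 8.70 ± 0.26. On the other side of CD274, PLGRKT, a plasminogen receptor, had a change of -0.23 ± 0.25 (limma adjusted p = 0.612), and INSL4, further on, was dim with a change of -0.08. JAK2, the interferon receptor kinase encoded on the same chromosome arm, had a change of 0.37 ± 0.13 (limma adjusted p = 0.0663), although its groups did not overlap. Around ULBP1 on chromosome 6, the measured protein-coding genes LRP11, RAET1E, PPP1R14C and IYD had changes between -0.08 and 0.08, of which none passed limma at the threshold. These neighbours were looked up after the values of the ligand genes were known.

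**Figure D3:**
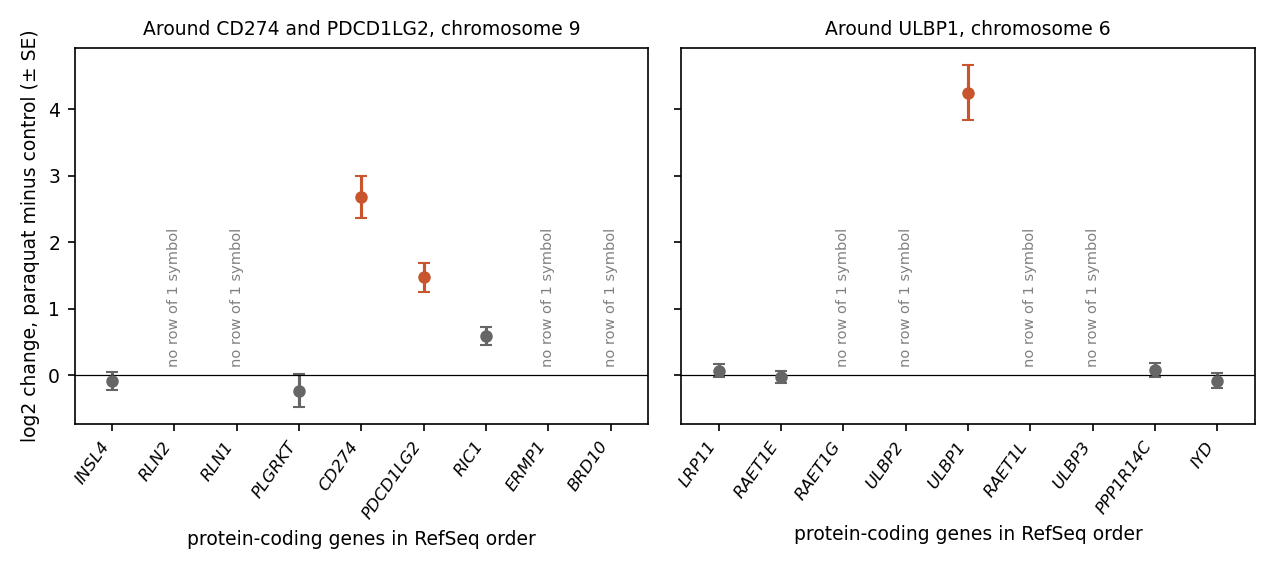
Log2 change after paraquat (vertical axis, ± SE from limma) of CD274, PDCD1LG2 and ULBP1 (orange) and of protein-coding genes up to 4 places away from CD274 or ULBP1 in RefSeq order (grey; genes without a row of 1 symbol are marked). RIC1 beside PDCD1LG2 rose by 0.59, and the measured neighbours of ULBP1 lie near 0.

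The other nectins and PVR, which bind the same receptors as nectin-2 or nectins themselves, split. Of 4 genes, 1 rose and 1 fell, beside 8.51% and 11.5% of all rows, with a median log2 change of -0.06. NECTIN4 rose by 0.90 ± 0.13 (limma adjusted p = 0.000494), from 5.45 ± 0.17 to 6.35 ± 0.22. NECTIN3 fell by 0.76 on the log2 scale (limma adjusted p = 0.0116), and PVR, the main DNAM-1 ligand, had a change of 0.12 (adjusted p = 0.545).

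Of 6 other B7 family genes, 1 rose and 0 fell (0 also at an unadjusted p under 0.05, by limma), with a median of 0.11. The shares over all rows were 8.51% raised and 11.5% lowered. ICOSLG, the ligand of the costimulatory receptor ICOS, had control values of 5.25, 5.03, 5.25, 5.41 and 5.25 and paraquat values of 6.28, 6.38, 6.68, 6.77 and 6.44. It rose by 1.27 ± 0.11 (limma adjusted p = 2.23e-05) with no overlap. CD80 and CD86, the ligands of CD28 and CTLA4, were both dim, with changes of 0.04 and 0.15 that did not pass. Without paraquat 14 a second gene of this list passed upward.

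Ligands that stimulate or bind T and NK cells rose in 3 of 8 cases and fell in 0 (0 also at an unadjusted p under 0.05, by limma), at a median of 0.21. Among all rows 8.51% rose and 11.5% fell. ICAM1, the ligand of the leukocyte integrin LFA-1, lay between 8.40 and 9.34 in controls and between 11.15 and 11.43 after paraquat. It rose by 2.43 ± 0.17 (limma adjusted p = 3.53e-06). TNFSF18, which encodes GITR ligand, lay between 4.48 and 6.24 in controls and between 6.77 and 7.79 after paraquat. It rose by 2.03 ± 0.30 (limma adjusted p = 0.000765). TNFSF9, which encodes 4-1BB ligand, rose by 0.46, but that call was lost in 6 of 10 fits with 1 array left out, namely without controls 7, 13 or 17 or paraquat 14, 18 or 20 (adjusted p from 0.0501 to 0.0895). The list had 2 to 4 raised genes with 1 array left out.

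Ligands and enzymes that restrain T, NK or myeloid cells moved both ways, with 3 of 8 raised, 3 lowered and a median of -0.02. Over all rows 8.51% rose and 11.5% fell. LGALS3, which encodes galectin-3, rose by 0.70 ± 0.16 (limma adjusted p = 0.00963). CD24, a sialoglycoprotein that restrains macrophages, fell by 0.70 (adjusted p = 0.00411). CD200, whose receptor restrains myeloid cells, fell by 0.92 (adjusted p = 0.00827). FGL1, a LAG-3 ligand, fell by 1.19 (adjusted p = 0.0135), from 4.31 to a dim 3.11. FGL1 was at 5.45 in control 11 and between 3.62 and 4.41 in the other controls. With 1 array left out its change ranged from -1.36 to -0.91 and passed in 10 of 10 fits. Of 5 genes of phagocytosis signals and CD47 partners, 0 passed limma in either direction (1 was lower at an unadjusted p under 0.05). CALR, which encodes the eat-me signal calreticulin, had a change of -0.15 and the scavenger receptor LRP1 one of -0.44 (adjusted p = 0.142). LRP1 passed without control 11 (-0.59, adjusted p = 0.0196), without control 11 and paraquat 12 together (adjusted p = 0.0378) and with array weights (adjusted p = 0.0237).

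Among 4 genes whose products shed NKG2D ligands from the surface, 2 rose and 0 fell (1 was lower at an unadjusted p under 0.05), at a median of 0.33. The shares over all rows were 8.51% raised and 11.5% lowered. The metalloproteinases MMP14 and ADAM9 rose by 0.38 (limma adjusted p = 0.0201) and 0.37 (adjusted p = 0.0187). The MMP14 call was lost without control 7 (adjusted p = 0.0517) or paraquat 20 (adjusted p = 0.0530). PDIA6 had a change of -0.32 (limma adjusted p = 0.0559). A gene of this list passed downward without paraquat 12, and without control 11 and paraquat 12 together. The same was so with array weights, with an intensity trend and robust prior, and without the dimmest 33.3% of rows. ADAM10 and ADAM17, the best known of these sheddases, had rows shared with other symbols and were not counted.

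Genes known to act on PD-L1 transcription or stability rose in 4 of 13 cases and fell in 0 (1 was lower at an unadjusted p under 0.05), at a median of 0.35. Over all rows 8.51% rose and 11.5% fell. JUN, a subunit of AP-1, lay between 7.24 and 7.96 in controls and at 9.70 or more after paraquat, and rose by 2.28 ± 0.13 (limma adjusted p = 1.05e-06). NFKB1, which encodes the p105 and p50 subunits of NF-kB, rose by 1.55 ± 0.13 (adjusted p = 1.49e-05). IRF1, the interferon regulatory factor of the PD-L1 promoter, rose by 1.39 ± 0.13 (adjusted p = 3.23e-05) and HIF1A by 0.46 ± 0.12 (adjusted p = 0.0182). Their groups did not overlap. CMTM6, which stabilises PD-L1 at the surface, had a change of -0.20 (adjusted p = 0.351). CMTM4, on the same list, had one of -0.25 (adjusted p = 0.0502), and its groups were apart by only 0.00039. A gene of this list passed downward without paraquat 8, with array weights, and without the dimmest 33.3% of rows.

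Genes known to act on NKG2D ligand transcription gave 2 raised and 4 lowered of 9, beside 8.51% and 11.5% of all rows, with a median of -0.40. XBP1, a factor of the unfolded protein response, rose by 0.72 ± 0.11 (limma adjusted p = 0.000681) and ATF4, the factor of the integrated stress response, by 0.47 ± 0.11 (adjusted p = 0.00935). SP1, a GC box factor, fell by 0.55 (adjusted p = 0.00265). ATR, the kinase of replication stress, fell by 0.59 (adjusted p = 0.0468), a call lost in 7 of 10 fits with 1 array left out, those without control 7, 11, 13 or 17 or paraquat 12, 18 or 20 (adjusted p from 0.0578 to 0.109).

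**Figure D4:**
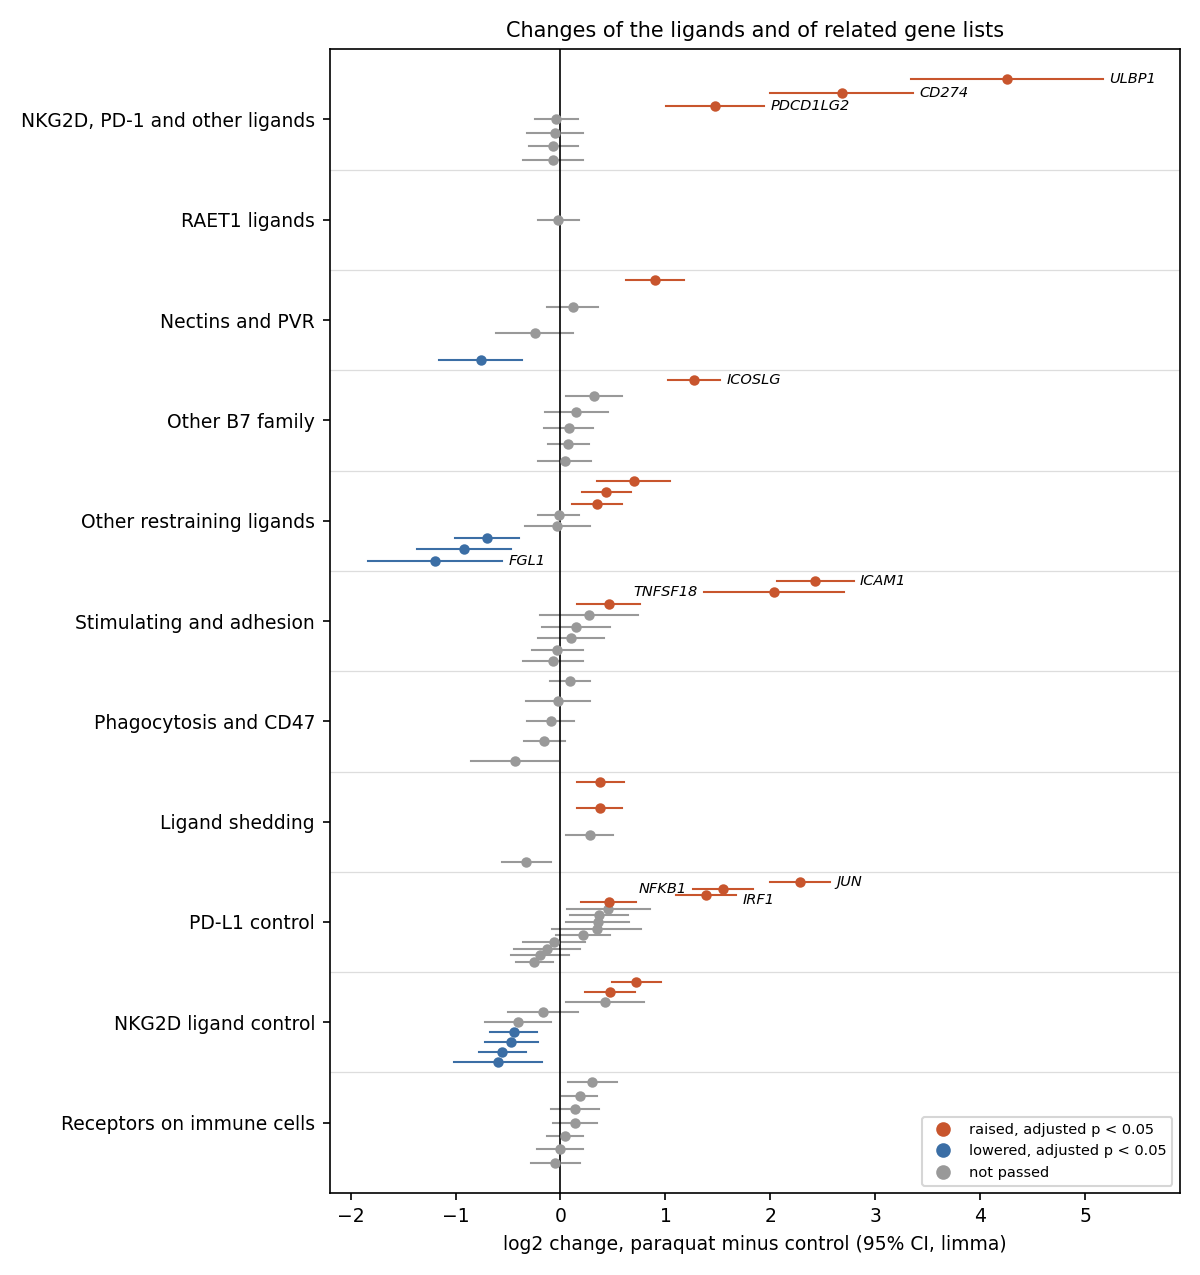
Log2 change after paraquat (horizontal axis) with 95% confidence intervals from limma for every measured gene of the ligand genes and of 10 related lists; orange genes rose and blue genes fell at an adjusted p under 0.05, grey genes did not pass, and names are given where a passing change was at least 1. ULBP1 and CD274 have the largest changes of those drawn.

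Signals of immune cells were checked beside these increases. KLRK1, which encodes NKG2D, and PDCD1, which encodes PD-1, had no row of 1 symbol and were not read. Of 7 other receptor and partner genes, 0 passed limma in either direction (2 were higher and 0 lower at an unadjusted p under 0.05), and 5 were dim in both groups. HCST, the signalling partner of NKG2D, had a change of 0.30 (limma adjusted p = 0.0711). It passed without control 11 (adjusted p = 0.0310), after centring of the arrays (adjusted p = 0.0387) or with array weights (adjusted p = 0.0186). CTLA4 had a change of 0.18 (adjusted p = 0.128). Of 11 leukocyte markers, 2 rose and 0 fell, beside 8.51% and 11.5% of all rows. The lysosomal CD68 rose by 1.33 and CD14 by 0.64. The mean log2 value of the list lay between 4.06 and 4.25 in controls and between 4.23 and 4.45 after paraquat. Of these 11 markers 5 were dim in both groups, among them PTPRC, the marker of all leukocytes, at 2.67 and 2.72, and CD3E and KLRD1 of T and NK cells. The NK cell receptor NCR1 (4.57 and 4.49), perforin, PRF1 (4.98 and 5.08), and the B cell marker MS4A1 (4.89 in controls) were above the dim level in both groups and did not pass. Of 7 neuroblast markers, 0 rose and 5 fell, CHGA by 1.66, ISL1 by 1.21, PHOX2A by 1.08 and GATA3 by 0.75. GAP43, a growth cone protein on this list, had a change of 0.62 (limma adjusted p = 0.0532). Upward, 1 neuroblast marker passed without control 11, paraquat 18 or paraquat 20, and without control 11 and paraquat 12 together. The same number passed after centring or repeated quantile normalization, with array weights, and without the dimmest 33.3% of rows. Of 6 mesenchymal markers 1 fell, LUM by 1.53, and 4 were lower at an unadjusted p under 0.05. The count of lowered ones was 4 with array weights or without the dimmest 33.3% of rows. It was 3 without control 11, alone or together with paraquat 12, and 2 without control 7, control 19, paraquat 12 or paraquat 14. LUM was at 9.30 in control 11 and between 7.41 and 7.81 in the other controls. With 1 array left out the LUM change ranged from -1.67 to -1.20 and passed in 10 of 10 fits. Of 3 glial markers 0 passed limma (0 also at an unadjusted p under 0.05), with S100B at -0.24 and SOX10 at 0.12. Whether the lower neuroblast and mesenchymal markers had a part in the ligand changes was not tested, and in bulk RNA fewer cells of a kind and less RNA per cell cannot be told apart.

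The genes most like each raised ligand were found by the root mean square difference over the 10 arrays, after each gene was centred on its own mean, among 14225 genes. For ULBP1 they were the transcription factors BHLHE40 (0.61) and EGR1 (0.70) and the cystine importer SLC7A11 (0.72), with changes of 4.16, 4.12 and 4.66. For CD274 they were the prostaglandin synthase PTGS2 (0.32), LONRF2 (0.32) and the kinase SGK1 (0.35), with changes of 2.98, 2.49 and 2.28. Like CD274, all 3 were highest among the controls in control 11, PTGS2 at 10.37, LONRF2 at 7.10 and SGK1 at 9.25. For PDCD1LG2 they were SYT12 (0.23), CCDC71L (0.25) and ZFP69B (0.25), with changes of 1.20, 1.42 and 1.25. This distance depends on the size of the change and says nothing on function.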

How the data were processed

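Total RNA of 10 samples was depleted of ribosomal RNA and hybridised to Affymetrix GeneChip Exon 1.0 ST arrays, per the labels' protocols. The deposited values are log2 expression values, and the submitters' processing notes name RMA as the authors' method. RMA subtracts background, equalises arrays and summarises probes, which tends to shrink changes of dim rows. The log2 scale was read from the values (1.07 to 14.4). No label or header states the software, filters or genome build. Symbols came from the platform annotation. Of 14432 rows with 1 symbol, 14404 matched RefSeq by gene ID.

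Paraquat was compared with control by limma 3.58.1 (R 4.3.3) on the deposited values, with the group as the only term, 8 residual degrees of freedom plus 3.06 from moderation, two-sided tests and Benjamini-Hochberg adjustment over 22011 rows. The fit was checked on simulated data. Differences between pairs of genes within arrays are given as means without a test. A group mean of at most 4.18, the level under which 20% of row means lie, was called dim. The number of arrays limits the precision, and the median SE of a change was 0.13.

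The members and the 14 other lists were chosen with earlier results of these data known. The text names all members and, in each other list, up to 4 passing genes with the largest changes or up to 2 as values where none passed. Exceptions, added after their values were seen, are PVR, CD80, CD86, CMTM6, CMTM4, PDIA6, JAK2, PTPRC, CD3E, KLRD1, NCR1, PRF1, MS4A1, TH, COL3A1, PDGFRB, COL1A1, DCN, POSTN, GAP43, the neighbouring genes and the rows with several symbols. Alternatives were median centring, repeated quantile normalization, omission of the dimmest rows, array weights, an intensity trend with a robust prior, a block of consecutive title numbers, a stricter threshold, and omission of arrays.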

Additional observations from a re-analysis of the deposited data

Results flagged for a closer look

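Over the 7 ligand genes and the 5 rows with several symbols that include a ligand gene, 24 groups of 5 arrays were searched for a single array far from the rest. In 1 of them such an array was found. The row assigned to RAET1L, ULBP2 and RAET1G had a value of 2.01 in paraquat 20, while the other 4 paraquat arrays lay between 2.77 and 2.91. The gap was 0.843 of the range of the group, above the critical value of 0.71. Chance flags about 1 in 20 such groups, and this row is among the dimmest in the table.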

How the results depend on the processing

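The increases of ULBP1, CD274 and PDCD1LG2 passed under every alternative in which they were tested, with ranges of 4.01 to 4.54, 2.48 to 2.95 and 1.36 to 1.64. Omission of the dimmest 33.3% of rows removed ULBP1 and PDCD1LG2 from the test and left 1 raised member. None of the 4 other members passed under any alternative, and their signs near 0 turned. NECTIN2 became 0.0087 after median centring and 0.015 after quantile normalization, MICB 0.060 with array weights and CD47 0.0046 without both control 11 and paraquat 12. With 1 array left out MICB ranged from -0.12 to 0.0041, CD276 from -0.11 to 0.017 and NECTIN2 from -0.10 to 0.0037. RAET1E became 0.028 after centring and 0.025 with array weights, and ranged from -0.053 to 0.040 with 1 array left out. The ULBP2 and RAET1G row 2930957 became 0.0068 without both arrays and reached 0.030 without control 11, and the ULBP3, ULBP1 and RAET1K row 2979267 ranged from -0.034 without paraquat 18 to 0.166 without paraquat 12. At an adjusted p under 0.01, 10 other pathway genes rose and 3 fell, against 16 and 8 of 58, and 1068 rows rose and 1424 fell, against 1873 and 2524. The cause of the turned signs was not tested. For 34 genes named from the other lists, 571 of 607 values kept direction and side of the threshold.

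Control and paraquat arrays share no title number, and nothing in the labels pairs those whose numbers follow each other. Deviations of such arrays from their group means correlated at 0.09 to 0.46 across rows, with 4 of the 5 pairs over 0.1. Controls 7, 11 and 17 correlated best with the paraquat array of the next number, and controls 13 and 19 with paraquat 18. With these numbers as a replicate block, 2226 rows rose and 3153 fell, and ULBP1 (limma adjusted p = 0.000709), CD274 (0.000336) and PDCD1LG2 (0.000337) passed. In the PD-L1 control list 7 genes rose in place of 4, LRP1 passed downward (adjusted p = 0.0275), and 4 mesenchymal markers fell in place of 1. Of the shedding list 1 gene passed downward in place of 0, and 1 neuroblast marker passed upward in place of 0. An average over several rows of a gene was not run, since each measured member had 1.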
